A study of Arabidopsis thaliana with 4 samples.

Results

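The genes described here encode 3 families of enzymes that plants use to modify foreign and defensive compounds: cytochrome P450 monooxygenases (P450), glutathione transferases (GST) and UDP-glycosyltransferases (UGT). Their symbols, and no ratio, set the membership, though the rule was drawn up with earlier results of these data known: CYP followed by a number, a letter and a number, leaving out the cyclophilin CYP71; GST or ATGST followed by a letter; and UGT followed by a number, leaving out UGT78D2. Among the 9253 genes with a probe assigned to a single gene, 74 met this rule, namely 17 P450, 13 GST and 44 UGT genes. The current reference list holds 224, 48 and 57 protein-coding genes with such symbols, so UGT symbols were well covered and P450 symbols sparsely. Genes of these families that carry other symbols are in neither count, so coverage of the whole families is not given. Of the 17 P450 genes, 14 belonged to the single subfamily CYP71B. The GST genes comprised 10 of the tau class (GSTU), 2 of the phi class (GSTF) and GSTL3 of the lambda class.

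In plants, P450 enzymes introduce oxygen into small molecules, GSTs join reactive molecules to the tripeptide glutathione, and UGTs attach a sugar, which makes a compound soluble and ready for storage in the vacuole. The families are best known for herbicide detoxification and for the response to oxidative stress, but many members work on the plant's own hormones, phenylpropanoids, flavonoids and defence compounds. All 3 families are large and have grown by tandem duplication, so that close relatives often lie side by side in the genome.

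RNA of Arabidopsis thaliana, ecotype Nossen, aged 4 weeks and grown on solid medium, was compared on 4 microarrays of 2 dyes, with 1 array for each condition and no replicate of any. On 2 arrays, plants carrying fas1-2 (p150 subunit) or fas2-2 (p60 subunit), mutations of chromatin assembly factor 1 (CAF-1), which deposits histones behind the replication fork, were set against wild type. On the other 2, wild type that had received 100 Gy of gamma radiation at 300 Gy/h, and was collected 6 h or 12 h later, was set against wild type that had not been irradiated. The sample labels name rosette leaves, the design text seedlings without roots, and neither says how many plants were pooled or whether arrays shared a control.

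Values are log2 ratios to the wild-type control of the same array, and a gene called 2-fold had a log2 ratio of at least 1 or at most -1. The labels give neither direction nor base, which follow the convention of the scanner software (log10 of red over green), so signs and fold sizes rest on that reading. Each member was read by 1 probe. For 48 transcripts that were spotted more than once, the pooled SD between spots of an array was 0.24 to 0.28 on the log2 scale, a measure of spot error alone that leaves out variation between plants. Only ratios were used, so leaf identity could not be checked from levels, and in whole tissue fewer cells of a type cannot be told apart from less RNA per cell. FAS1 and FAS2 were not analysed here. Markers of leaf, root and anther are given beside the results.

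Of the 74 genes, 18 were at least 2-fold from control on at least 1 array and 56 on none, so that 24.3% of the members met this criterion against 8.03% of all genes. At 6 h after irradiation 7 members were at least 2-fold above control, 9.46% of the 74 against 1.88% of all genes, and 1 was at least 2-fold below, 1.35% against 1.01%. At 12 h none was 2-fold above, against 0.908% of all genes, and 3 were 2-fold below, 4.05% against 0.746%. In fas1-2 the numbers were 3 above (4.05% against 1.58%) and 4 below (5.41% against 1.29%), and in fas2-2 they were 3 above (4.05% against 1.77%) and 2 below (2.70% against 1.34%). These counts describe single arrays and carry no test. Relatives with similar sequence are counted separately here, so they are not independent observations.

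**Figure D1:**
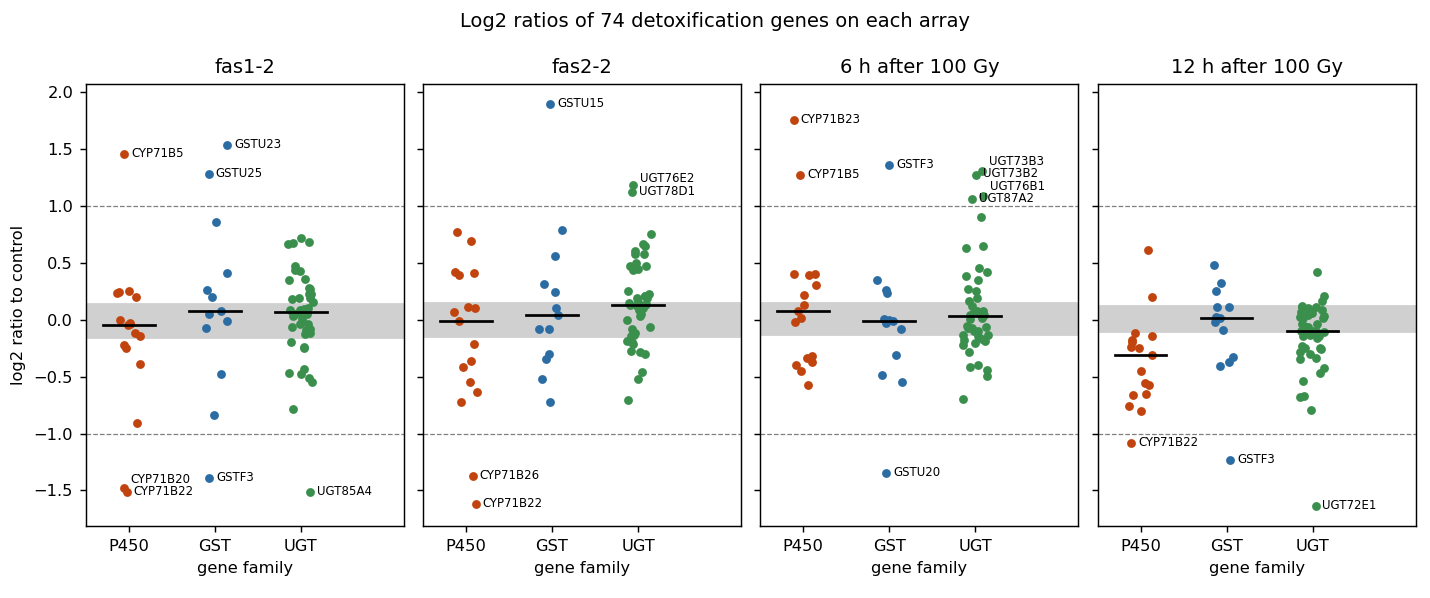
Log2 ratio to control (vertical axis) of each of the 74 genes (points, by family) on each of the 4 arrays; black bars are family medians, the grey band spans the interquartile range of all 9253 genes and dashed lines mark 2-fold. Named points are the genes at least 2-fold from control. The 6 h panel holds 7 named genes above the upper line and the 12 h panel none.

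The first question was which of these genes differed when CAF-1 was lost. No member passed in limma, a linear model fitted to all genes whose error comes from how far apart the 2 mutants and the 2 times lie: 0 of 74 had a Benjamini-Hochberg adjusted p under 0.05, against 0.119% of all genes. Without adjustment, 16 members had a p under 0.05, which is 21.6% of the 74 against 20.9% of all genes. Of these members 10 were higher and 6 lower, while over all genes 887 were higher and 1047 lower. The smallest adjusted p of a member was 0.0954.

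That value belonged to CYP71B22 (AT3G26200), a P450 of the CYP71B subfamily, which stood at -1.51 in fas1-2 and -1.62 in fas2-2. It was the lowest P450 gene on both mutant arrays, at the 0.42nd and 0.35th percentile of all genes, and its mean was -1.57 (SE 0.19; adjusted p = 0.0954 in limma). No other member was at least 2-fold the same way on both mutant arrays, 1.35% of the members against 0.919% of all genes; both mutants may have been set against the same wild-type RNA. CYP71B20 (AT3G26180), a neighbour in the genome, was low in fas1-2 at -1.48 but near control in fas2-2 at -0.21. CYP71B26 (AT3G26290) showed the opposite, at -0.03 in fas1-2 and -1.38 in fas2-2. CYP71B5 (AT3G53280) was the P450 gene with the highest mean, 0.93 (SE 0.39; adjusted p = 0.284 in limma), made up of 1.46 in fas1-2 and 0.41 in fas2-2.

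The family medians of the P450 genes were -0.05 in fas1-2 and -0.02 in fas2-2, while those of all genes were 0.00 and -0.01. The P450 genes with known products lay within 2-fold of control. CYP71B6 (AT2G24180), which oxidises indole-3-acetonitrile, stood at 0.00 in fas1-2 and 0.69 in fas2-2. CYP79A2 (AT5G05260), which turns phenylalanine into an aldoxime on the way to benzylglucosinolate, stood at 0.24 and -0.36. CYP78A9 (AT3G61880), known for its effect on fruit and seed size, was slightly below control in each, at -0.23 and -0.41.

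Of the GST genes, 3 tau-class members were at least 2-fold above control in a mutant. GSTU15 (AT1G59670) had the highest value of any member on any array, 1.90 in fas2-2, and was at control in fas1-2 at 0.05. GSTU23 (AT1G78320) stood at 1.54 in fas1-2 and 0.56 in fas2-2, with the highest mean of the family (1.05, SE 0.27; adjusted p = 0.173 in limma). GSTU25 (AT1G17180), whose enzyme can conjugate the explosive TNT, stood at 1.28 in fas1-2 and -0.08 in fas2-2. Each of these 3 genes was thus at least 2-fold above control in only one of the mutants, and which mutant it was differed between them. Only 1 array was made per mutant, so this difference between fas1-2 and fas2-2 was not tested.

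GSTF3 (AT2G02930), a phi-class enzyme, was the lowest GST gene in each mutant, at -1.39 in fas1-2 and -0.72 in fas2-2, with a mean of -1.06 (SE 0.69; adjusted p = 0.436 in limma). Since limma pools the spread of both settings, its SE includes the distance between its values at 6 h (1.36) and 12 h (-1.23). GSTU16 (AT1G59700) was below control on each mutant array with closer values, -0.83 and -0.52, and a mean of -0.68 (SE 0.10; adjusted p = 0.109 in limma). GSTL3 (AT5G02790), a lambda-class enzyme that removes glutathione from conjugates, stood at 0.41 and 0.25. Over the 13 GST genes the medians were 0.08 in fas1-2 and 0.04 in fas2-2.

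The UGT genes varied less. In fas1-2 the only one at least 2-fold from control was UGT85A4 (AT1G78270), at -1.51, with -0.71 in fas2-2 and the lowest UGT mean (-1.11, SE 0.23; adjusted p = 0.139 in limma). In fas2-2 there were 2, UGT76E2 (AT5G59590) at 1.19, with 0.22 in fas1-2, and UGT78D1 (AT1G30530) at 1.12, with -0.04 in fas1-2. UGT78D1 adds rhamnose to flavonols, and 3 other enzymes that glycosylate flavonoids stood at 0.19 and 0.16 (UGT78D3, AT5G17030, which adds arabinose), at -0.79 and 0.25 (UGT73C6, AT2G36790) and at 0.68 and 0.00 (UGT73B2, AT4G34135). The highest UGT mean was that of UGT76E2 (0.70, SE 0.26; adjusted p = 0.257 in limma). UGT76E11 (AT3G46670) had nearly the same value in each mutant, 0.47 and 0.48 (adjusted p = 0.117 in limma), as did UGT84A4 (AT4G15500), of the group that makes glucose esters of hydroxycinnamic acids, at 0.68 and 0.67 (adjusted p = 0.141 in limma). The UGT medians were 0.06 in fas1-2 and 0.13 in fas2-2, with 27 and 29 of 44 genes above 0; over all genes 4561 and 4461 of 9253 were above 0.

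Of 9 root marker genes listed, 3 were measured: PYK10 (AT3G09260) at 0.34 in fas1-2 and 1.0 in fas2-2, EXPA7 (AT1G12560) at -0.03 and 0.73, and EXPA18 (AT1G62980) at 0.14 and 0.19. Of 10 leaf markers 4 were measured, with medians of 0.03 and -0.17. The leaf marker LHCB4.2 (AT3G08940), a light-harvesting protein gene, stood at -0.03 in fas1-2 and -1.96 in fas2-2, while the other 3 lay between -0.20 and 0.39 in fas2-2. In fas2-2, therefore, 2 root markers were further above control and 1 leaf marker was far below it. Of 10 anther tapetum markers 4 were measured, and AMS (AT2G16910) stood at -1.54 in fas1-2 and 0.00 in fas2-2, ATA27 (AT1G75940) at -0.62 and -1.27, with SHT (AT2G19070) and A9 (AT5G07230) between 0.00 and 0.08. The part of these markers in the members' values in the mutants was not tested.

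**Figure D2:**
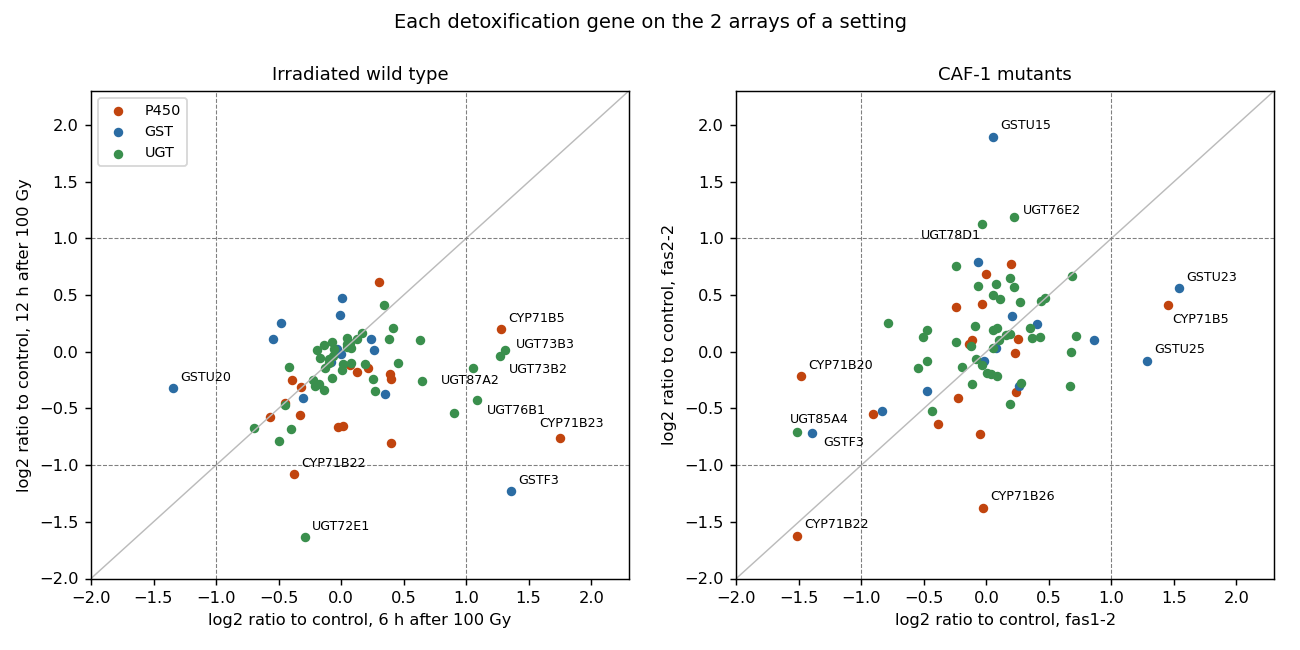
Log2 ratio to control of the 74 genes (points coloured by family) on the 2 arrays of each setting: 6 h (horizontal) against 12 h (vertical) on the left, fas1-2 (horizontal) against fas2-2 (vertical) on the right. The grey line marks equal values, dashed lines mark 2-fold, and genes at least 2-fold on either array are named. GSTF3 and CYP71B23 are high at 6 h and low at 12 h, and CYP71B22 is low in each mutant.

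The second question was which genes differed after irradiation. The 7 genes that were 2-fold above control at 6 h came from all 3 families. They had values of -1.23 to 0.20 at 12 h, with a median of -0.14, and 5 of them were then below 0. These genes were picked by their 6 h value, and the highest 12 h value of any member was 0.61. A 12 h value under the 6 h value was therefore fixed by that choice. For the same reason the scatter of 6 h against 12 h values shows these 7 genes to the right of the line of equal values.

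The largest 6 h value was that of CYP71B23 (AT3G26210), at 1.75, or 3.37-fold, the 99.7th percentile of all genes. At 12 h it stood at -0.76, the 1.66th percentile, a difference of -2.51. GSTF3 stood at 1.36 at 6 h and -1.23 at 12 h, a difference of -2.59, and was the only member at least 2-fold in opposite directions at the 2 times. CYP71B23 and GSTF3 were also the members with the largest differences between the times in their families, and each was below control in both mutants, CYP71B23 at -0.91 in fas1-2 and -0.55 in fas2-2. CYP71B5 stood at 1.28 at 6 h and 0.20 at 12 h; with 1.46 in fas1-2 it was 2-fold above control on 2 of the 4 arrays and above 0 on all.

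The other 4 genes were UGTs. UGT73B3 (AT4G34131) and UGT73B2, adjacent genes, had nearly the same ratio at 6 h, 1.31 and 1.27, and were at control at 12 h, at 0.02 and -0.04. UGT73B3 is known to be needed for full resistance to an avirulent strain of Pseudomonas syringae, and UGT73B2 glucosylates flavonoids. UGT76B1 (AT3G11340), which glucosylates isoleucic acid, salicylic acid and N-hydroxypipecolic acid and so dampens the defence response, stood at 1.09 at 6 h and -0.43 at 12 h, the largest difference between the times of any UGT gene (-1.51). UGT87A2 (AT2G30140), known from the control of flowering time, stood at 1.06 and -0.14. Just under the 2-fold line at 6 h lay UGT71B6 (AT3G21780), which makes the glucose ester of abscisic acid, at 0.90, with -0.54 at 12 h.

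The remaining genes of the UGT73B group were on the same side at 6 h. UGT73B5 (AT2G15480), the second gene of that group known from resistance to Pseudomonas syringae, stood at 0.65 at 6 h and -0.26 at 12 h. Its neighbour UGT73B4 (AT2G15490), which can glucosylate TNT derivatives, stood at 0.46 and -0.10. UGT73B1 (AT4G34138) was lower at 6 h, at 0.35, and unlike the others kept its value at 12 h, at 0.42. All 5 UGT73B genes were thus above 0 at 6 h, with a median of 0.65, and 2 of 5 were above 0 at 12 h, with a median of -0.04. Over all genes 4634 of 9253 were above 0 at 6 h. In the mutants 4 of the 5 UGT73B genes were above 0 in fas1-2, with a median of 0.07. In fas2-2 3 of 5 were above 0, with a median of 0.45. UGT73C1 (AT2G36750), another enzyme with activity towards TNT derivatives, stood at 0.63 and 0.10. GSTU25, whose enzyme can conjugate TNT, stood at -0.08 at 6 h and -0.09 at 12 h.

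Below control after irradiation stood GSTU20 (AT1G78370), a tau-class enzyme that binds the jasmonate-conjugating enzyme JAR1, at -1.35 at 6 h and -0.32 at 12 h; its mean was the lowest of the GST genes (-0.83, SE 0.33; adjusted p = 0.368 in limma). In the mutants the same gene was at 0.86 in fas1-2 and 0.11 in fas2-2. At 12 h the lowest member on any array was UGT72E1 (AT3G50740), which glucosylates coniferyl aldehyde in lignin metabolism, at -1.64, or 3.11-fold below control, with -0.29 at 6 h. Its relatives UGT72E2 (AT5G66690), at 0.42 and 0.21, and UGT72E3 (AT5G26310), at 0.08 and 0.03, which act on monolignols, were near control. CYP71B22 stood at -0.38 at 6 h and -1.08 at 12 h, so that it was at least 2-fold below control on 3 of the 4 arrays. UGT76C2 (AT5G05860), which inactivates cytokinins by N-glucosylation, had nearly the same value at each time, -0.69 and -0.67 (adjusted p = 0.258 in limma), while its neighbour UGT76C1 (AT5G05870), with the same activity, stood at -0.05 and 0.02.

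No member passed in limma for irradiation (0 of 74; 0% of all genes), and the smallest adjusted p of a member was 0.231, for UGT73B1. Without adjustment, 11 members had a p under 0.05, 14.9% of the 74 against 14.6% of all genes. Of these members 1 was higher and 10 were lower, while over all genes 695 were higher and 659 lower. The P450 genes made up 5 of the 10 lower members: CYP71B34 (AT3G26300), CYP78A9, CYP71B22, CYP71B35 and CYP84A4 (AT5G04330), an enzyme of arabidopyrone synthesis. CYP71B34 had the same ratio of -0.45 at each time, and CYP84A4 stood at -0.57 at each time. CYP71B22, CYP71B34 and CYP71B35 lie in a single run of neighbouring genes. The spread behind this test pools the distance between 6 h and 12 h with that between the mutants. A gene high at 6 h and back at control at 12 h therefore has a large error in it. So does a gene whose values differ between the mutants: GSTU25 stood at -0.08 and -0.09 after irradiation, yet had an SE of 0.35. None of the members was at least 2-fold the same way at both times, 0% against 0.346% of all genes.

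Most of the measured P450 genes stood below control at 12 h. Their median was -0.31, against 0.00 for all genes on that array, and 15 of 17 were below 0, where 4513 of all 9253 genes were. Of these 15 genes, 9 form a single run of neighbouring CYP71B genes. Of the 8 P450 genes outside that run, some of them also CYP71B, 6 were below 0, with a median of -0.21. The CYP71B subfamily made up 14 of the 17 genes, and 12 of these 14 were below 0 at 12 h. Other subfamilies were represented only by CYP78A9 (-0.55 at 12 h), CYP84A4 (-0.57) and CYP79A2 (-0.14). At 6 h the median of the 17 was 0.07, with 7 of 17 below 0. The UGT median was 0.03 at 6 h and -0.10 at 12 h, with 28 of 44 genes below 0 at 12 h, and the GST median was -0.01 and 0.02. Those medians are descriptions of 1 array each. Of the 4 measured anther tapetum markers, AMS stood at 1.73 at 6 h and 3.42 at 12 h, SHT at -1.11 and 3.39, ATA27 at -0.37 and 2.83, and A9 at -0.02 and 0.09. Thus 3 of the 4 were far above control at 12 h, while at 6 h they went in different directions. The leaf markers had medians of -0.22 at 6 h and -0.24 at 12 h, and the root markers of -0.23 and 0.09. The part of these markers in the members' values after irradiation was not tested.

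**Figure D3:**
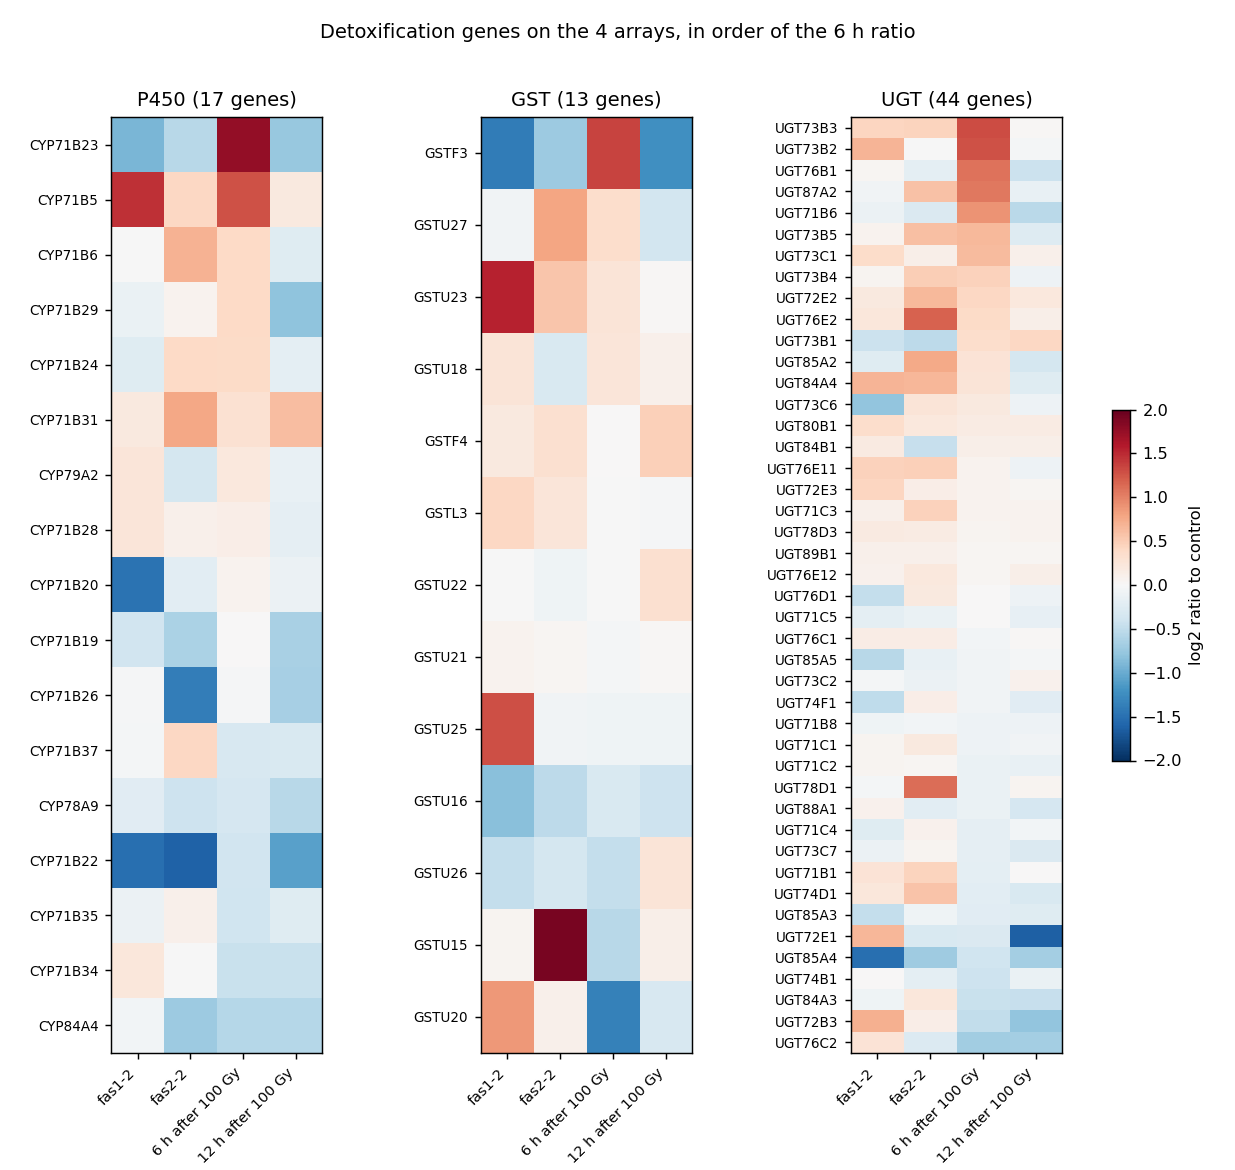
Log2 ratio to control (colour, from -2 in blue to 2 in red) of every member on each array (columns), with genes of each family ordered by their ratio at 6 h. In the 12 h column of the P450 panel, 15 of 17 genes are below 0.

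The third question was whether the mutants and irradiated wild type differed from each other. No member passed in limma for that difference (0 of 74; 0% of all genes), and 11 had an unadjusted p under 0.05, 14.9% against 14.3% of all genes. The smallest adjusted p was that of UGT73B1, 0.165. Its values were even within each setting and opposite in sign between them: -0.43 in fas1-2, -0.52 in fas2-2, 0.35 at 6 h and 0.42 at 12 h, a difference of -0.86 (SE 0.092). UGT72B3 (AT1G01420) differed the other way, with 0.71 and 0.14 in the mutants and -0.50 and -0.79 after irradiation (difference 1.07, SE 0.25; adjusted p = 0.258 in limma).

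Members that neighbour each other in the genome were then set side by side. Allowing up to 10 other protein-coding genes between members, 46 of the 74 genes fell into 16 runs. The longest held 9 CYP71B genes of chromosome 3, from CYP71B19 (AT3G26170) to CYP71B37 (AT3G26330). All 9 were below control at 12 h, between -1.08 and -0.11, while 8 of 9 were in fas1-2, between -1.51 and 0.23, 6 of 9 in fas2-2, between -1.62 and 0.42, and 5 of 9 at 6 h, between -0.45 and 1.75. CYP71B22 and CYP71B23, which lie next to each other, stood at -0.38 and 1.75 at 6 h. Genes of 1 run may cross-hybridise to each other's probes; this was not tested.

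Neighbours were alike in some runs and unlike in others. UGT73B4 and UGT73B5 differed by at most 0.19 on any array, and UGT71C1 and UGT71C2, which glucosylate phenolic compounds, by at most 0.16. GSTU15 and GSTU16 differed by 2.42 in fas2-2, and GSTU25 (1.28) and GSTU26 (AT1G17190; -0.48) by 1.76 in fas1-2. In the run of 4 tau-class genes on chromosome 1, GSTU23 and GSTU20 at its ends held the extreme values, 1.54 in fas1-2 and -1.35 at 6 h. Between them lay GSTU22 (AT1G78340) and GSTU21 (AT1G78360), of which GSTU21 stayed between -0.03 and 0.08 on all 4 arrays.

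**Figure D4:**
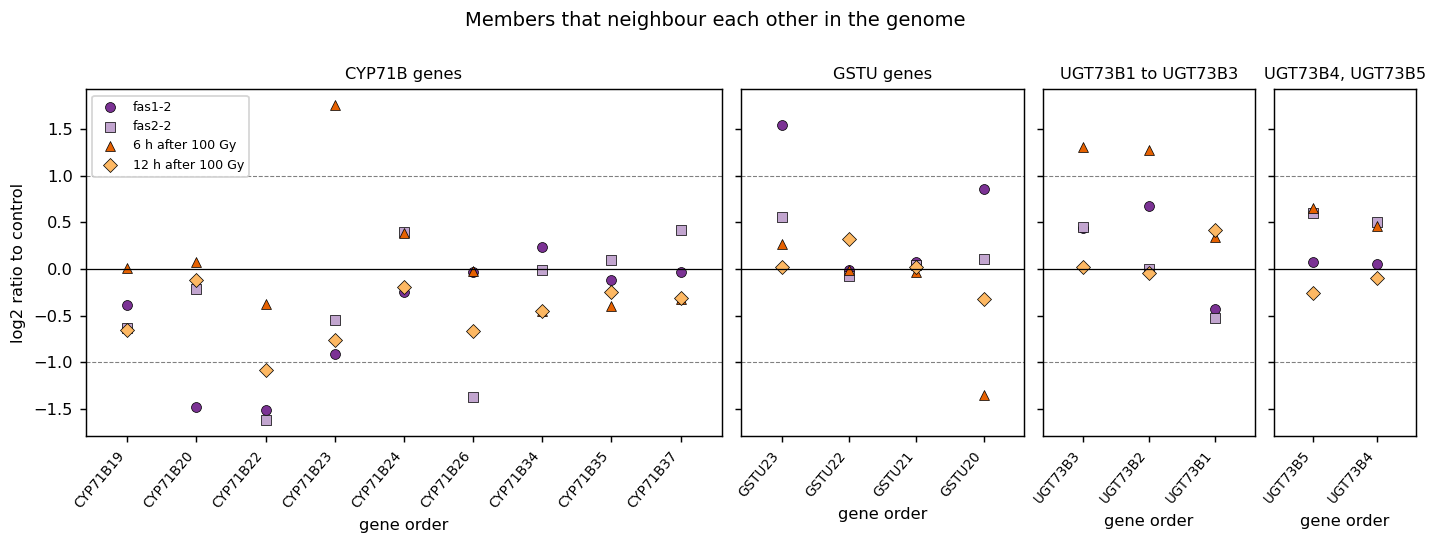
Log2 ratio to control (vertical axis) of members in runs of neighbouring genes, in genome order (horizontal axis), with a marker for each array. Other genes lie between some members of a run. Dashed lines mark 2-fold. In the CYP71B panel every 12 h marker is below 0 and CYP71B23 is the single gene above 2-fold at 6 h; UGT73B3 and UGT73B2 are 2-fold above control at 6 h.

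The other members were under 2-fold on all 4 arrays, though not all were near control. CYP71B31 (AT3G53300) stood at 0.77 in fas2-2 and 0.61 at 12 h, and CYP71B29 (AT1G13100) at -0.80 at 12 h. GSTU27 (AT3G43800) stood at 0.79 and UGT85A2 (AT1G22360) at 0.76 in fas2-2. On all 4 arrays 35 of the 74 genes were within 0.5 of control, and 13 were within 0.3. The latter included CYP71B28, GSTU21, UGT71C5 (AT1G07240), the main enzyme that makes abscisic acid glucose ester, which stood at -0.19 to 0.01, and UGT89B1 (AT1G73880), at 0.04 to 0.10. Enzymes of hormone conjugation other than those above were also under 2-fold on every array. UGT74F1 (AT2G43840), which makes salicylic acid glucoside, stood at -0.51 in fas1-2, 0.13 in fas2-2, -0.08 at 6 h and -0.23 at 12 h. For auxin, UGT84B1 (AT2G23260) stood at 0.19, -0.46, 0.12 and 0.11 in the same order, and UGT74D1 (AT2G31750) at 0.22, 0.57, -0.21 and -0.30. UGT74B1 (AT1G24100), which adds the glucose of glucosinolates, stood at 0.01, -0.19, -0.42 and -0.14. The sterol glucosyltransferase UGT80B1 (AT1G43620) was slightly above control on every array, at 0.35, 0.21, 0.17 and 0.16.

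Little else of the detoxification pathway was measured. Of 51 genes in 7 lists (P450 reductases, glutathione metabolism, export transporters, oxidoreductases, TGA factors, antioxidant enzymes and salicylate defence), 3 had a named probe, and none passed in limma in any comparison. GR1 (AT3G24170), a glutathione reductase, stood at 0.07, 0.46, 0.25 and -0.12 on the fas1-2, fas2-2, 6 h and 12 h arrays. The plastid glutathione reductase (AT3G54660) stood at -0.36, -0.01, -0.28 and -0.34. NQR (AT3G27890), a quinone reductase, stood at -0.10, 0.17, 0.66 and 0.13, so that its highest value was at 6 h.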

How the data were processed

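The authors deposited 1 log ratio for each feature on each array, read here as log10. Per the submitters' processing notes the ratios come from Agilent Feature Extraction. Version, background correction and dye normalization are not given in the sources used here. Red (Cy5) marked the mutant or irradiated RNA on all 4 arrays, per the labels, with no dye swap, so a gene's dye effect is part of its ratio. Values ran from -1.80 to 1.66, with array medians between -0.0014 and -0.0004, and were multiplied by 3.32 to give log2 ratios. Without intensities, background and saturation could not be judged; precision is limited by the small number of arrays.

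The array annotation of 2007 assigns 1 gene to 9335 of the 22575 features, several to 40 and none to 13200; 9317 were matched by gene identifier to the reference list (TAIR10.1), used for symbols and gene order. Where a gene had several probes (79 of 9253 genes, no member among them), their mean was taken.

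The fit was limma 3.58.1 (R 4.3.3; lmFit, eBayes) on all genes and arrays, estimating 1 mean per setting (mutant, irradiated), each tested against 0 and against each other with Benjamini-Hochberg adjustment over all 9253 genes. It had 2 residual and 1.78 prior degrees of freedom and leaves out the control's own spread; p-values measure the spread between these arrays. Members, lists and roles were chosen with earlier results of these data known. Genes named are those at least 2-fold on any array, the extremes of each family and setting, and others given for a role or gene neighbourhood.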

Additional observations from a re-analysis of the deposited data

Results flagged for a closer look

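GSTF3 was at least 2-fold from control in opposite directions at the 2 times after irradiation, at 1.36 at 6 h and -1.23 at 12 h. With 1 array for each time, the difference was not tested. It was the only member with such values at the 2 times, and no member was 2-fold in opposite directions in the 2 mutants.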

How the results depend on the processing

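No member was called in any of the 9 alternative limma fits (arrays centred, arrays scaled to 1 spread, robust variance moderation, all features in the fit, exact zeros treated as missing, and each array left out in turn), and the count of called members was 0 in every fit that left out an array. The smallest adjusted p of any member in these fits ran from 0.0529 to 0.249 for the mutants, 0.128 to 0.387 for irradiation and 0.162 to 0.362 for their difference. The mean of GSTF3 after irradiation turned from 0.06 to -0.058 with scaled arrays and was -1.23 without the 6 h array and 1.36 without the 12 h array. If the deposited values were log2 and not log10, 0 members would be 2-fold on any array or the same way in both mutants, and the P450 median at 12 h would be -0.094. The counts of 2-fold members and the family medians were compared under centring, scaling, missing zeros, the largest probe and the array's own symbols. They kept within 1.5 times, or within the median SD between spots of an array (0.10 to 0.13 on the log2 scale). No paired analysis was possible because each condition has 1 array and the labels give no replicate numbers. Signal over background could not be judged.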

Other observations

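Some genes of the same enzyme families carry other symbols and were outside the rule by symbol. UF3GT (AT5G54060), also named UGT79B1, which glycosylates anthocyanins, stood at 1.95 in fas1-2, 1.88 in fas2-2, -0.61 at 6 h and 0.11 at 12 h. GT72B1 (AT4G01070), also named UGT72B1, a close relative of UGT72B3 that acts on monolignols and on chlorinated phenols, stood at 0.50, 0.82, -0.01 and -0.02 in the same order. The sterol glucosyltransferase gene SGT (AT3G07020), also named UGT80A2, stayed between -0.08 and -0.02 on all 4 arrays, and AT5G54010, also named UGT79B6, between -0.09 and 0.09. The P450 gene CYP718 (AT2G42850) stood at 0.11, -0.06, 0.06 and 0.05.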
